A study of Mus musculus with 6 samples.

Results

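Valine tRNAs were followed in small RNA of mouse brain through all tRNA references whose names begin with Val, leaving out the mitochondrial tRNA. The rule gave 10 of the 190 references, of which 5 carry the anticodon AAC, 4 carry CAC and 1 carries TAC. Total RNA from brain, wild type or knockout for TRMT1L, was ribosome-depleted, size-selected and sequenced in 3 libraries per genotype. The knockout allele, the strain and the age of the mice are not given in the sources used here, and nothing in the labels says which animal each library came from, so the tests measure the spread between libraries. TRMT1L is a paralogue of TRMT1, the methyltransferase of guanosine 26, and the comparison asked how valine tRNA reads differ without it. Transcripts of brain marker genes and of Trmt1l were not analysed here, so tissue and genotype rest on the labels.

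The codon family for valine is read by 3 anticodons. The first base of AAC is deaminated in the cell to inosine, which reverse transcriptase reads as G, so an A read as G at position 34 marks the modified tRNA. CAC and TAC have no such base. Adenosine 58 in the T loop is commonly methylated, and the methyl group lies on the pairing face, where it makes reverse transcriptase stop or misread. Brain and other tissues also hold tRNA pieces cut in the anticodon loop, and reads of such pieces end or start near the anticodon.

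The 10 references are close relatives, which decides how their reads can be told apart, so the sequences that the results turn on are printed from the deposited files. Capitals mark the anticodon (positions 34 to 36) and, in 2 references, the base at position 6.

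Val-AAC-4, bases 1 to 55: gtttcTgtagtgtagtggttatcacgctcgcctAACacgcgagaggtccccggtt
Val-AAC-5, bases 1 to 76: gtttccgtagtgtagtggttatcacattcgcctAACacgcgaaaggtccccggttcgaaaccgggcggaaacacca
Val-CAC-1, bases 1 to 76: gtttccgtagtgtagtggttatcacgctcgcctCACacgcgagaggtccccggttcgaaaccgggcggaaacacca
Val-CAC-2, bases 1 to 76: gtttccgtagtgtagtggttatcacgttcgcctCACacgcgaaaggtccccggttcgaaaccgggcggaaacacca
Val-CAC-4, bases 1 to 54: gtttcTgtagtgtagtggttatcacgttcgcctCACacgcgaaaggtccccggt
Val-TAC-1, bases 1 to 75: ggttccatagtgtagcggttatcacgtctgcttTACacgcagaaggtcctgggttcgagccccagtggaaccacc

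Positions count from 1 at the 5′ end of the reference, and from position 21 on they equal the canonical tRNA number. Where a reference is shown only in part, the rest had no position with 30 reads, the fewest that the files list. Val-AAC-1, Val-AAC-2 and Val-AAC-3 were listed only outside the anticodon, with these bases 1 to 33.

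Val-AAC-1: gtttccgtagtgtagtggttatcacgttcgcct
Val-AAC-2: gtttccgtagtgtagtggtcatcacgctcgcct

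Val-AAC-3 and Val-CAC-3 had the same bases 1 to 33 as Val-AAC-2. Val-AAC-1 and Val-CAC-2 did not differ at any of the 55 positions listed in both, so a read of either that ends before the anticodon belongs equally to an AAC and to a CAC tRNA. From Val-AAC-1 to Val-AAC-5 the only change over 55 positions was G26A, and from Val-CAC-2 to Val-CAC-4 the only change over 54 was C6T. Val-AAC-4 and Val-CAC-1 differed over 55 positions by T6C and A34C, written from Val-AAC-4. Val-TAC-1 stood apart, with 12 to 20 differences from each of the others. RefSeq, on mouse build GRCm38.p6, names 8 genes for tRNA-Val with anticodon AAC, 11 with CAC and 3 with TAC. The references were not matched to single genes, so no gene position is given.

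Valine references took 18.2% to 23% of all base calls, in wild-type libraries of 6151209, 6295061 and 6274159 calls and knockout libraries of 8295437, 7981301 and 8797395. Every knockout library was deeper than every wild-type library. Coverage stopped near 8000 reads at any position, which is treated as a depth limit, and 2 or 3 valine references reached it in each library. Val-AAC-1 and Val-CAC-2 lay at the limit in all 6 libraries, so their levels are only known to be at least that high. Wild-type replicate 2 stood apart in Val-TAC-1. It alone held 19 mismatches in 199 calls at position 42, deletions in 20 of 202 reads at position 49 and insertions in 18 of 199 reads at position 51, and the other 5 libraries had 0 at each of these positions. At position 6 of Val-TAC-1 it had 5.63% mismatches against 0% to 1.61% elsewhere. For most tests that rest on Val-TAC-1, the difference or the adjusted p without this library is also given.

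Reads of the valine references fell into 3 patterns along the molecule. Val-AAC-1, Val-AAC-2, Val-AAC-3, Val-AAC-5, Val-CAC-1, Val-CAC-2 and Val-CAC-3 had a block of reads over bases 1 to 33, while that of Val-CAC-4 began mainly from position 7 on. All of these but Val-CAC-4 had a separate block from position 59 or 60 to the CCA end, with little between, and in Val-AAC-2, Val-AAC-5 and Val-CAC-1 the 3′ block was the higher one. Val-AAC-4 and Val-TAC-1 were the exceptions, with many reads that ran through the anticodon, as far as position 54.

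**Figure D1:**
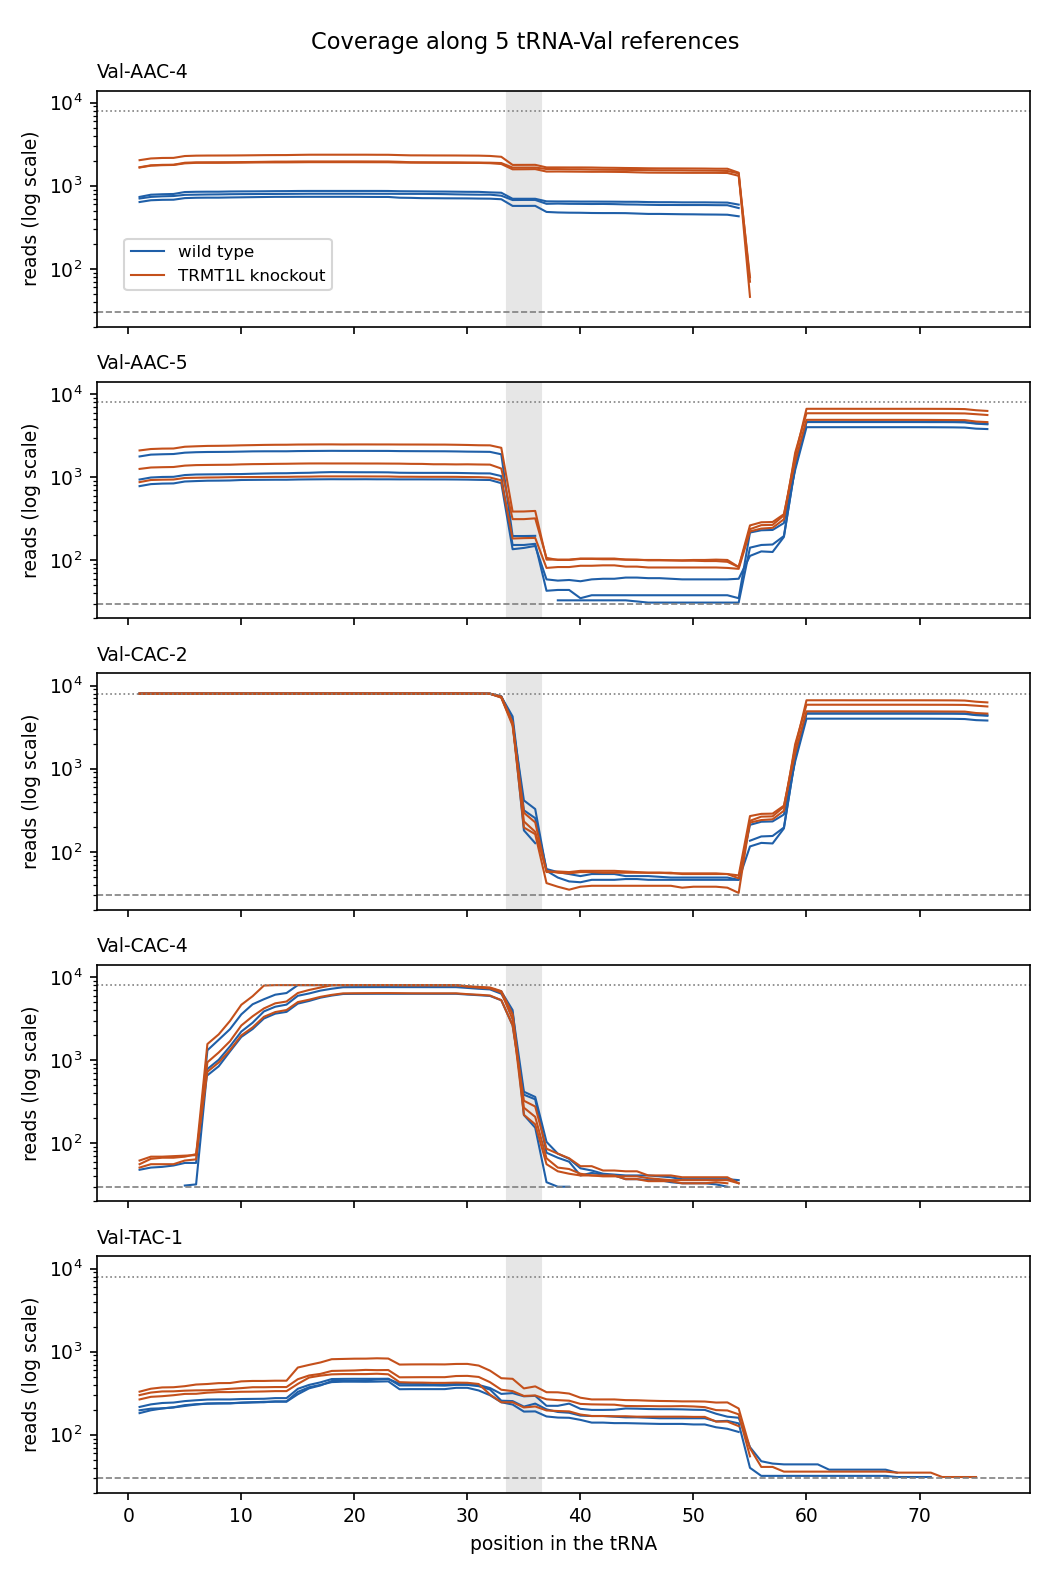
Number of reads (log scale) at each position of 5 valine tRNA references, with 1 line per library, blue for wild type and orange for TRMT1L knockout. The grey band is the anticodon, the dotted line the depth limit of 8000 reads and the dashed line the 30 reads below which no position is listed. Coverage of Val-AAC-4 and Val-TAC-1 continues through the anticodon, while that of the other 3 falls there by more than 10-fold in each library.

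The share of reads that crossed the anticodon was measured as coverage at position 37 over coverage at position 30. In Val-AAC-4 it was 76.8%, 77.3% and 68.8% in the wild-type libraries and 78.5%, 83.5% and 72.0% in the knockout libraries. The genotypes overlapped (difference 3.75 percentage points, exact two-sided permutation test, p = 0.4, where 3 against 3 libraries cannot go below 0.1). In Val-TAC-1 it was 50.8%, 53.7% and 45.2% in the wild-type libraries against 46.4%, 52.3% and 45.6% in the knockout libraries, again with overlap (difference -1.79 points, exact permutation p = 0.7). Without wild-type replicate 2 that difference was 0.12 points.

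Val-AAC-5 has the same anticodon as Val-AAC-4, yet few of its reads crossed it. The wild-type shares were 3.84%, 6.30% and at most 1.43%, the last being a bound because position 37 was not listed there. The knockout shares were 7.48%, 8.06% and 4.17%, which overlapped the wild type (exact permutation p = 0.2, with the bound as the value). Between 75.4% and 89.6% of the Val-AAC-5 reads present at position 33 had it as their last base. In Val-AAC-4 that share was 11.3% to 20.1%, so the 2 AAC references did not overlap in any library. Over bases 1 to 33 Val-AAC-5 differs from Val-AAC-1 and Val-CAC-2 only by G26A. A read of those references with A at position 26 that ends by position 33 would match Val-AAC-5. The part of such reads in the Val-AAC-5 shares was not tested.

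Reads of the CAC references ended mainly at position 33 or 34. At position 32, 6.77% to 18.4% of the reads present ended, over the 4 references and 6 libraries, and at position 23 of Val-CAC-3 5.61% to 12.4% ended. In Val-CAC-2, 42.2% to 53.9% of reads present at position 33 ended there, and of those that went on, 88.4% to 95.2% ended at position 34, the first anticodon base. Val-CAC-4 gave 85.4% to 94.5% at position 34. Val-CAC-3 and Val-CAC-1 reads ended mainly at 33, with 70.9% to 82.9% and 50.4% to 77.6% of those present there. Reads of Val-CAC-3 that end by position 33 match Val-AAC-2 and Val-AAC-3 equally, so they cannot be assigned to CAC. In wild-type replicate 1, 818 Val-CAC-3 reads ended at 33, where Val-AAC-2 coverage was 823. At position 23, 104 reads ended in each of these references. Coverage at 37 was at most 0.77% of that at 30 in Val-CAC-2 and at most 1.40% in Val-CAC-4. For Val-AAC-1, with no listed position beyond 33 before the T arm, the bound was 0.36%. Since its bases 1 to 33 are those of Val-CAC-2, reads ending at 33 cannot be told apart between them, and both stood at the depth limit.

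**Figure D2:**
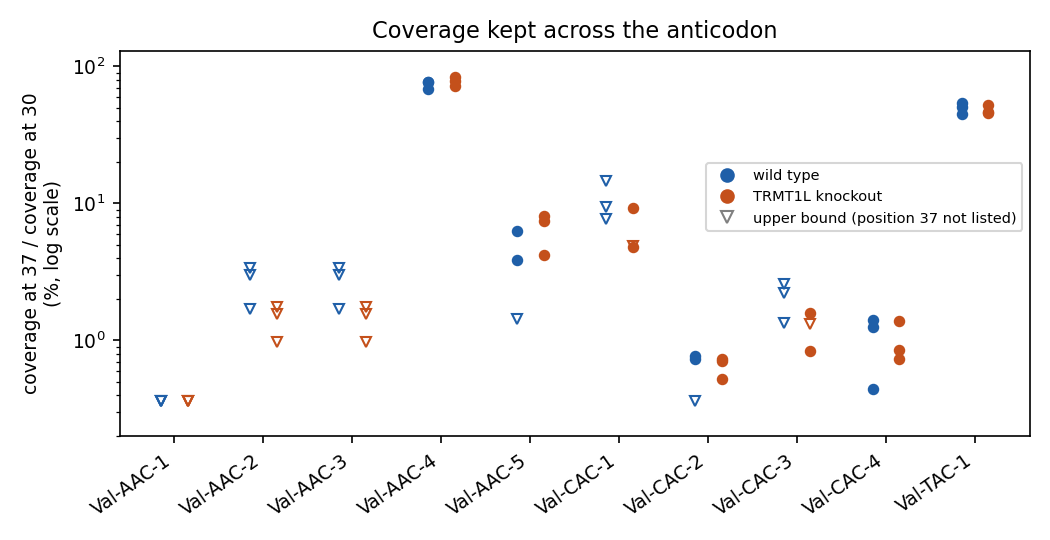
Coverage at position 37 as a percentage of coverage at position 30 (log scale) for each valine reference, with 1 point per library. Open triangles are upper bounds for libraries in which position 37 had fewer than 30 reads. Val-AAC-4 (68.8% to 83.5%) and Val-TAC-1 (45.2% to 53.7%) lie above the other 8 references in every library.

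Coverage of both references fell after position 54, at the start of the T loop. Of the Val-AAC-4 reads present at position 54, at least 93.2% had it as their last base in each library, and of the Val-TAC-1 reads at least 59.4% did. These are lower limits where the next position was not listed. Many Val-TAC-1 reads ended at earlier points. At position 23 the share ending was 17.6%, 12.4% and 20.5% in wild-type brain and 19.9%, 19.1% and 15.5% in knockout brain. At position 31, in the anticodon stem, it was 10.2%, 8.31% and 13.5% against 25.5%, 15.3% and 13.8%, so the knockout values were the higher 3, the lowest of them by a small margin. Read ends were not part of a test across all references, and this position was picked after its values were seen.

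Where reads began also set the references apart. In Val-AAC-4, 87.8% to 90.1% of the reads that started in positions 1 to 33 started at position 1. Val-TAC-1 split between position 1, with 38.2% to 48.5%, and positions 14 to 17 in the D loop, with 25.2% to 33.8%. In Val-CAC-4, coverage at position 6 was at most 74 reads, and at position 7 it was 782, 657 and 1315 in the wild-type libraries against 943, 725 and 1564 in the knockout libraries. In the 3 libraries below the depth limit, 93.7% to 95.2% of its 5′ reads started at positions 7 to 18. In the 3 libraries at the limit, which can hide later starts, the share was 98.6% to 99.1%. Those reads lie downstream of T6, the only listed base by which Val-CAC-4 differs from Val-CAC-2, so they match both references equally.

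Of 1042 read-start sites tested across all tRNA references (reads starting at a site over its coverage, quasi-binomial model with limma moderation), 4 were called at an adjusted p under 0.05, or 0.384%. Valine references held 91 of the sites, 79 with distinct counts, and none of the 91 was called, while 2 had an unadjusted p under 0.05, as did 7.39% of all sites. The first was position 2 of Val-CAC-3, where reads lacking the first base made up 7.13%, 8.20% and 7.41% in wild-type brain and 9.61%, 9.34% and 9.49% in knockout brain (adjusted p = 0.619, limma). The second was position 23 of Val-TAC-1, with 2.54%, 2.35% and 1.37% against 0%, 0.50% and 1.09% (adjusted p = 0.619, and 0.802 without wild-type replicate 2, limma). Of the 79 distinct sites, the knockout libraries were all higher at 7 and all lower at 3, and genotypes did not overlap at 14.2% of all 1042 sites, copies included.

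Among valine references that never reached the depth limit, Val-AAC-4 was the only one whose abundance was called different between genotypes. Its highest coverage was 866, 802 and 736 reads in the wild-type libraries and 1921, 1961 and 2363 in the knockout libraries. The groups did not overlap, and the lowest knockout library held more than 2-fold the reads of the highest wild-type library. The means were 801 ± 65.0 and 2082 ± 244 reads (SD, n = 3), a ratio of 2.60 before scaling for depth. After scaling, edgeR's quasi-likelihood test gave a log2 fold change of 0.89 ± 0.17 (SE) with an adjusted p of 0.0027.

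Over all 145 references tested in that fit, 33 (22.8%) were called, 12.4% higher and 10.3% lower in the knockout, and the median log2 fold change was -0.0041. The valine call in the higher direction thus stands among a sizeable share of all references. The size of the Val-AAC-4 rise depends on the scaling. With upper-quartile normalization it was 0.39 on the log2 scale and no longer called (edgeR adjusted p = 0.144). That scaling moved the median of all references to -0.49 and gave 71 calls in all, of which 12 were higher in the knockout. It called 6 valine references, all of them lower in the knockout. Leaving out each library in turn gave 0.77 to 0.94, called each time.

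A ratio between valine references needs no scaling. Val-AAC-4 coverage was 1.83, 1.71 and 1.68 times that of Val-TAC-1 in the wild-type libraries against 3.54, 3.25 and 2.84 times in the knockout libraries. The groups did not overlap, and the log2 ratio differed by 0.88 (exact two-sided permutation p = 0.1, the smallest possible), or by 0.87 without wild-type replicate 2. Against the 3′ block that Val-CAC-2 shares with other references, the log2 ratio of Val-AAC-4 differed by 0.98 (exact permutation p = 0.1). Both ratios were chosen after the coverage had been seen.

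The rise of Val-AAC-4 covered its whole listed length. Coverage at position 37, past the anticodon, was 649, 606 and 484 reads in wild-type brain and 1481, 1589 and 1662 in knockout brain. The log2 ratio of its mean coverage in positions 1 to 30 to that in 45 to 73, with unlisted positions counted as 29 reads, was 1.91 ± 0.11 (SD, n = 3) in the wild-type libraries against 1.90 ± 0.10 in the knockout libraries. That difference of -0.0030 was not called (adjusted p = 0.995, limma), beside a median difference of 0.22 over all references tested.

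Other valine references below the limit were not called. Val-TAC-1 reached 472, 469 and 439 reads in wild-type brain and 542, 603 and 832 in knockout brain, with no overlap before scaling. After scaling, its log2 change was 0.02 ± 0.20 (SE; adjusted p = 0.948, edgeR), and 0.05 without wild-type replicate 2 (edgeR adjusted p = 0.929). Val-AAC-3 had 1133, 1019 and 1923 reads against 2044, 2292 and 3449, also without overlap before scaling (log2 fold change 0.43, edgeR adjusted p = 0.298). Val-CAC-3, which shares its bases 1 to 33, had 1462, 1286 and 2360 against 2407, 2637 and 4033 (log2 fold change 0.33, edgeR adjusted p = 0.431). Both were called higher without wild-type replicate 3, at 0.78 (adjusted p = 0.024, edgeR) and 0.65 (adjusted p = 0.048, edgeR). Reads that end by position 33 count for both references, so these calls are not independent.

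For Val-AAC-2, Val-AAC-5 and Val-CAC-1 the highest coverage lay in the 3′ block they share, so it counts nearly the same reads for each. In Val-AAC-5 it was 4000, 4610 and 4627 reads in the wild-type libraries against 4904, 5885 and 6659 in the knockout libraries. After scaling the log2 fold change was -0.09 for each of the 3 references (edgeR adjusted p = 0.660). With upper-quartile normalization the 3 were called lower, at -0.58 (edgeR adjusted p = 0.0079).

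The calls of Val-AAC-1 and Val-CAC-2 as lower (log2 fold change -0.49, edgeR adjusted p = 0.0005) and of Val-CAC-4 (-0.46, edgeR adjusted p = 0.011) rest wholly or in part on saturated coverage. Before scaling, the ratio of knockout to wild type was 1.0 for the first 2 and 1.03 for Val-CAC-4, whose coverage was 7574, 6294 and 8005 reads in wild-type brain and 8001, 6416 and 8008 in knockout brain. A level held at a fixed limit falls when it is divided by a greater depth, so the fold changes of Val-AAC-1 and Val-CAC-2 cannot be read as a change in the tRNA. Val-CAC-4 was at the limit in 3 of the 6 libraries, 2 of them knockout, and was not called without wild-type replicate 1 (log2 fold change -0.43, edgeR adjusted p = 0.0708). With references at the depth limit left out, 20 of 128 were called, Val-AAC-4 alone among the valine references (log2 fold change 0.80, edgeR adjusted p = 0.0033).

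The 5′ part was also tested on its own, since the shared 3′ block hides it in 3 references. Over positions 1 to 33, 40 of 120 references (33.3%) were called, 18.3% higher in the knockout. For Val-AAC-4 these are the same counts as its highest coverage, and with the scaling of this fit they gave 0.71 on the log2 scale (edgeR adjusted p = 0.011). The other valine calls were of references wholly or partly at the depth limit, with Val-AAC-1 and Val-CAC-2 at -0.66 (edgeR adjusted p = 1.3e-05) and Val-CAC-4 at -0.63 (edgeR adjusted p = 0.0025). The 5′ part of Val-AAC-5 held 1152, 946 and 2078 reads in the wild-type libraries against 1465, 1023 and 2484 in the knockout libraries. The groups overlapped, and the log2 fold change was -0.44 ± 0.37 (SE; adjusted p = 0.464, edgeR). The 5′ part of Val-CAC-1 held 338, 210 and 406 reads against 495, 614 and 926, with no overlap before scaling (log2 fold change 0.42, edgeR adjusted p = 0.394).

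**Figure D3:**
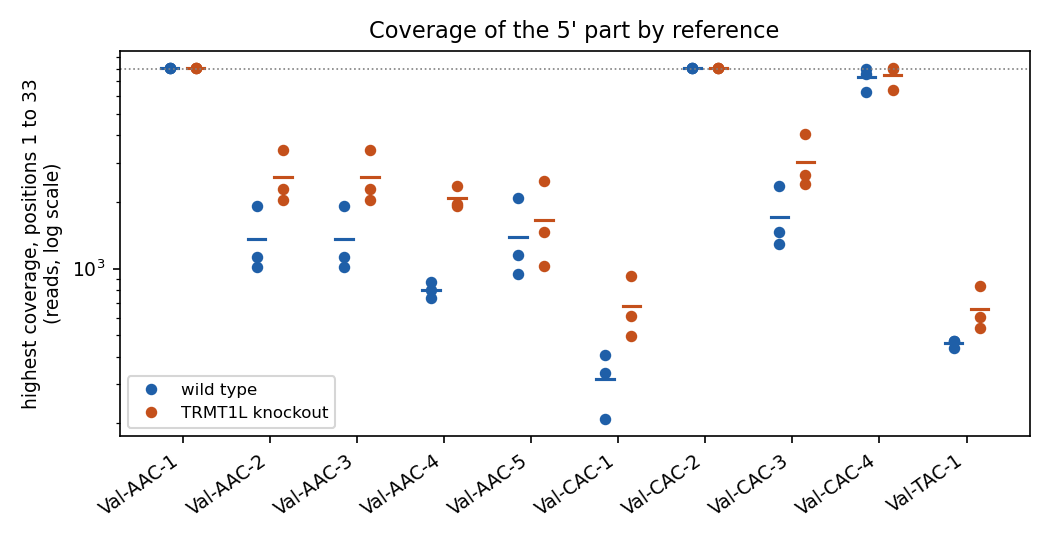
Highest coverage in positions 1 to 33 (reads before scaling for depth, log scale) for each valine reference. Points are libraries, bars are group means, and the dotted line is the depth limit of 8000 reads. For Val-AAC-4 the knockout libraries (1921 to 2363 reads) and the wild-type libraries (736 to 866) are apart, while Val-AAC-1 and Val-CAC-2 lie at the limit in all 6.

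From position 60 on, 0 of 86 references (0%) were called by edgeR. The 3′ block shared by Val-AAC-1, Val-AAC-5 and Val-CAC-2 had a log2 fold change of 0.03 ± 0.19 (SE) with an edgeR adjusted p of 0.947. Val-AAC-3 and Val-CAC-3 share a different 3′ end, with A69G against the others, and it was rare. It held 50, 46 and 50 reads in wild-type brain and 82, 89 and 103 in knockout brain (log2 fold change 0.54, edgeR adjusted p = 0.533).

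The balance of 5′ against 3′ coverage could be tested for 9 of the 10 valine references, and limma called none of them, against 2 of 78 references overall (2.56%). In Val-AAC-1 the log2 ratio was 1.99, 1.80 and 1.79 in the wild-type libraries against 1.70, 1.44 and 1.27 in the knockout libraries. The knockout values were the lower 3 (difference -0.39, limma adjusted p = 0.339), with the 5′ part at the depth limit. Val-CAC-2 gave the same difference and adjusted p. In Val-CAC-1 the log2 ratio was -2.65, -3.53 and -2.59 against -2.40, -2.34 and -1.92, with the knockout values higher (difference 0.70, limma adjusted p = 0.305). Over all 78 references the median difference was 0.22, the 2 calls were higher in the knockout, and genotypes did not overlap in 29.5%.

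As shares of summed highest coverage, with copies within 1% counted once, AAC made up 39.4%, 41.1% and 39.5% in wild-type brain and 41.4%, 43.5% and 42.6% in knockout brain. CAC made up 59.3%, 57.5% and 59.4% against 57.2%, 55% and 55.6%. TAC made up 1.33%, 1.34% and 1.13% against 1.33%, 1.45% and 1.73%. AAC was higher by 2.52 percentage points and CAC lower by 2.75, neither with overlap (exact two-sided permutation p = 0.1 for each, the smallest possible), and TAC was higher by 0.24 with overlap (exact permutation p = 0.2, and 0.27 points without wild-type replicate 2). Adjusted over the 3 shares, the permutation p was 0.15, 0.15 and 0.2. These shares are bounded by the depth limit and rest on stretches that AAC and CAC share, so they do not measure the amounts of the 3 isoacceptors.

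At the first anticodon base, nearly all AAC reads that reached it carried G. In Val-AAC-4 the share of calls read as G was 99.1%, 98.5% and 99.3% in the wild-type libraries against 97.6%, 95.2% and 97.8% in the knockout libraries. Read as A were 5 of 697, 9 of 673 and 3 of 572 calls in wild-type brain and 36 of 1576, 78 of 1654 and 34 of 1781 in knockout brain. These are 0.72%, 1.34% and 0.52% against 2.28%, 4.72% and 1.91%, so every knockout library held a larger share of A calls than every wild-type library. Coverage of the position was also higher in every knockout library, and its part in the difference was not tested.

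The means were 0.86% ± 0.42 and 2.97% ± 1.52 (SD, n = 3), and the difference of 2.11 percentage points reached the smallest p that the design allows (exact two-sided permutation, p = 0.1). In the test across all mismatch sites this position had an unadjusted p of 0.069 (limma-moderated) and an adjusted p of 0.648, so it was not called. Wilson 95% intervals, which cover counting error only, were 0.71% to 2.52% in the highest wild-type library and 1.37% to 2.66% in the lowest knockout library, and these overlap. Without knockout replicate 2, the difference was 1.24 points (exact permutation p = 0.1). The median base quality was 40 in all 6 libraries.

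In Val-AAC-5 the same position was less deeply read. Its G share was 99.3%, 99.3% and 99.0% in the wild-type libraries against 99.0%, 100% and 99.2% in the knockout libraries, and A was read in 1 of 153, 0 of 136 and 2 of 196 calls against 0 of 313, 0 of 183 and 3 of 386. The genotypes overlapped (difference in A -0.30 points, exact permutation p = 0.7), and whether the 2 references respond differently was not tested. Its median base quality was 21 to 23, lower than in Val-AAC-4, and where no A was read, 3 calls would make 0.96% to 2.21%. Averaged over the 2 AAC references, the G share differed by -0.96 points (exact permutation p = 0.1). That mean combines -2.15 points in Val-AAC-4 with 0.22 points in Val-AAC-5, and neither was called in the test across all mismatch sites (limma-moderated adjusted p = 0.648 and 0.962).

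**Figure D4:**
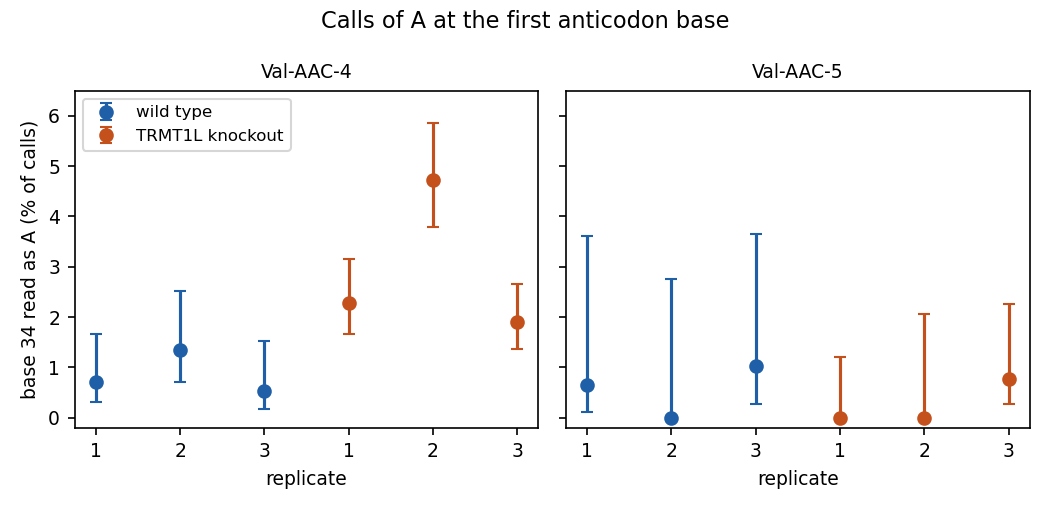
Percentage of base calls at position 34 read as A in Val-AAC-4 and Val-AAC-5, with 1 point per library and Wilson 95% intervals for counting error. In Val-AAC-4 the knockout libraries (1.91% to 4.72%) lie above the wild-type libraries (0.52% to 1.34%), and in Val-AAC-5 the genotypes overlap.

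Position 34 of Val-AAC-1, Val-AAC-2 and Val-AAC-3 was not listed, so G calls could not be measured there. Among 27 other references with A at position 34, only 2 isoleucine references had 100 reads in each library. Their mean share read as G was 88.3% and 91.7% in wild-type brain and 84.1% and 88.5% in knockout brain, with overlap in both. The valine references were therefore read as G more often than these in both genotypes, a difference that was not tested.

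At adenosine 58 the valine references with a 3′ block were read mostly as A, from few reads. Val-AAC-1, Val-AAC-5 and Val-CAC-2 had identical counts there, with mismatches in 0.36%, 1.57% and 7.14% of calls in the wild-type libraries against 7.52%, 0.32% and 6.61% in the knockout libraries. Each genotype held low and high libraries, so the groups overlapped (limma-moderated adjusted p = 0.833). Over the 3 sets of counts that were not identical, the difference was 1.40 points (exact permutation p = 0.9). These sets hold nearly the same reads of the shared 3′ block and are not independent. The misread bases were T and G, with 17 T and 10 G in knockout replicate 1 and 23 T and 0 G in knockout replicate 3.

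Few reads of the 3′ block reached back across position 58. Coverage at position 58 was 3.91% to 7.32% of that at position 60 in the 5 references listed at both with this block. Of the reads starting from position 59 on, 23% to 29.9% started at 59 and 70.1% to 77% at 60. In 25 other references with A58 and counts that were not identical, near-copies included, the wild-type mismatch share had a median of 14.3%. Its range was from 0% to 74.4%. Val-TAC-1 had 32 to 44 reads at position 58 in 3 libraries, fewer than 30 in the others, and 0 mismatches.

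Guanosine 26 was read with few mismatches, at levels that differed between references. Val-AAC-2 and Val-AAC-3, with identical counts, gave 3.83%, 2.07% and 4.01% in wild-type brain and 2.41%, 2.31% and 3.08% in knockout brain (adjusted p = 0.712, limma). Val-CAC-3 gave 4.61%, 2.46% and 3.34% against 2.38%, 1.96% and 2.80% (adjusted p = 0.663, limma). Val-AAC-4 gave 1.29%, 4.01% and 4.37% against 4.59%, 4.33% and 2.72% (adjusted p = 0.940, limma). All 3 overlapped between genotypes.

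Val-CAC-2, Val-CAC-4 and Val-TAC-1 were lower, at 0.25% to 1.38% in the first 2 and 0% to 1.14% in Val-TAC-1, and Val-CAC-1 gave 0% to 1.90% from 204 to 917 calls. Val-AAC-1 had 0 mismatches among at least 8014 calls in each library. A Val-AAC-1 or Val-CAC-2 read with A at position 26 that ends by position 33 has the sequence of Val-AAC-5. Such a read need not appear as a mismatch of Val-AAC-1 or Val-CAC-2. The same holds for a Val-CAC-4 read that starts after T6. The low shares of these references can therefore miss G read as A, and their difference from the other references was not tested.

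Among the valine guanosines tested, which had at least 100 reads in each library, position 7 of Val-AAC-4 had the highest mean mismatch share in both genotypes, at 9.38%, 8.40% and 9.89% in the wild-type libraries against 10.8%, 8.39% and 8.90% in the knockout libraries, most of it G read as C. The groups overlapped (adjusted p = 0.983, limma). In wild-type replicate 2 alone, guanosine 42 of Val-TAC-1 was higher, at 9.55%. Val-CAC-1 gave 7.55%, 2.63% and 7.75% against 5.16%, 4.14% and 2.13% (adjusted p = 0.663, limma). The other valine references with G7 lay between 0.38% and 2.44%. In the same place Val-AAC-4 lost a base, with deletions listed at position 6 in 1.89%, 1.41% and 0.14% of wild-type reads and 2.44%, 1.67% and 1.74% of knockout reads (adjusted p = 0.677, limma).

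Mismatches at positions 9, 37 and 54 were few. At position 9 no valine reference was misread in more than 1.70% of calls in any library. At position 37 of Val-AAC-4, next to the anticodon, the share was at most 0.063% in 484 to 1662 calls, and at position 54 it was 0% in 429 to 1436. Val-TAC-1 had 0 mismatches at position 37 in 166 to 325 calls and at position 54 in 108 to 207. The other valine references had at most 107 calls at either position, with 4 mismatches in 59 calls at position 37 of Val-AAC-5 in wild-type replicate 2 and 0 elsewhere.

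Across all references 142 mismatch sites were tested and 0 (0%) were called, with 8.45% at an unadjusted p under 0.05 (limma-moderated). Valine references held 19 of the sites, 15 with distinct counts, of which 0 were called and 0 had an unadjusted p under 0.05. Genotypes did not overlap at 1 of them, position 34 of Val-AAC-4, and at 3.52% of all sites. Of 60 deletion sites and 35 insertion sites, 0 (0%) of either kind were called, with 13.3% and 8.57% at an unadjusted p under 0.05 (limma-moderated). Valine references held 2 of each.

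Both valine insertion sites and 1 of the deletion sites were in Val-TAC-1. At position 54, after which its coverage falls, insertions were seen in 0 of 137, 0 of 160 and 0 of 108 wild-type reads and in 37 of 127, 7 of 176 and 33 of 207 knockout reads (adjusted p = 0.178, and 0.0705 without wild-type replicate 2, limma), and genotypes did not overlap at 5.71% of all insertion sites. In Val-AAC-4, where coverage also falls after position 54, the knockout libraries held 4 of 1317, 10 of 1409 and 3 of 1436 and the wild-type libraries 0 of 593, 0 of 539 and 0 of 429. The genotypes did not overlap at this site, which was below the pooled rate of 1% set for a test and was not tested. In the wild type 3 reads would make 0.51% to 0.70% there, against knockout shares of 0.30%, 0.71% and 0.21%, so only knockout replicate 2 lay above what the wild-type depth could show.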

How the data were processed

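Small RNA of mouse brain was measured in 3 wild-type and 3 TRMT1L knockout libraries, grouped and numbered by their titles. Per the file headers, the deposited values are raw counts at each position of each tRNA reference (coverage, base calls, reverse-transcription stops, deletions and insertions), with no normalization. A mean and a median base quality score stand beside them, per the file headers. GATK 3.5 is named in the submitters' processing notes, with no role. Aligner, pileup software, genome build and the source of the reference sequences are not given in the sources used here. Only positions with 30 or more reads are listed, so an unlisted position had at most 29, and the highest value was 8032. Copies with identical counts stayed in the fits and were counted once in means and shares over references.

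A stop listed at a position was read as a read start at the position before it. A mismatch is a call that differs from the reference base. Sites with at least 100 reads in each library and a pooled rate of at least 1% were tested with a two-sided quasi-binomial model, with dispersion moderated by limma (3.58.1, R 4.3.3). Highest coverage per reference was tested with edgeR's quasi-likelihood test (4.0.16, TMM, filterByExpr), and the 5′ to 3′ ratio (log2) with limma. All fits ran over all references, with Benjamini-Hochberg adjustment at 0.05. For references other than valine the 5′ and 3′ parts were taken by reference position. Single values were compared by exact two-sided permutation of the 6 libraries. DESeq2 (1.42.0), other normalizations and filters, a replicate block and leaving out each library were alternatives. Fits on positions 1 to 33 and from 60 on, the shares across the anticodon and the ratios to Val-TAC-1 and Val-CAC-2 were added after the data were seen.

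The statistics were tested on simulated counts. Named were all valine references, their positions 9, 26, 34, 37, 54 and 58, and up to 6 valine sites per kind of event with the smallest unadjusted p, while position 7 was named after its values were seen. The members and lists were chosen with earlier results of these data known. Libraries of a group were compared in pairs over 128 references, and none agreed within sampling noise (chi-square per degree of freedom 16.4 to 58.2). Wilson 95% intervals and the share that 3 reads make cover counting error only.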

Additional observations from a re-analysis of the deposited data

How the results depend on the processing

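The counts of called valine sites (0 mismatch, 0 start, 0 deletion, 0 insertion) and of called 5′ to 3′ ratios (0) stayed at 0 under each alternative run, leaving out each library included. The 4 valine abundance calls of edgeR became 1 with the median per-position coverage, 1 with references at the depth limit left out and 0 with coverage from position 60 on, which leaves out Val-AAC-4 and Val-CAC-4. Leaving out each library gave 3 to 6, among 24 to 41 called over 145 to 148 references. The G share at position 34 differed by -1.14 to -0.69 points when a library was left out, the mismatch share at 58 by 0.11 to 3.70, and the AAC, CAC and TAC shares by 2.02 to 3.07, -3.39 to -2.29 and 0.12 to 0.32. The upper-quartile call lost by Val-AAC-4 comes with 71 calls in all against 33, and the cause was not tested. Calls over all references also fell to 13 with the median per-position coverage and to 20 with references at the depth limit left out.

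Only values that were not called, or that lie at the depth limit, changed sign. From position 60 on, the log2 fold changes of Val-AAC-1, Val-AAC-5 and Val-CAC-2 became 0.033, of Val-AAC-2 0.032 and of Val-CAC-1 0.031, all from the shared 3′ block. Over positions 1 to 33, Val-AAC-2 became 0.25, Val-CAC-1 0.42 and Val-TAC-1 -0.15. With the median per-position coverage, Val-AAC-2 became 0.44, Val-CAC-1 0.60 and Val-CAC-3 -0.17. With no filter, Val-AAC-2 became 0.0026, Val-AAC-5 0.0037 and Val-CAC-1 0.0019. With upper-quartile normalization, Val-AAC-3 became -0.061, Val-CAC-3 -0.17 and Val-TAC-1 -0.48. Val-TAC-1 was -0.0052 with DESeq2, -0.071 with references at the depth limit left out, and -0.0052, -0.045 and -0.19 without wild-type replicate 3, knockout replicate 2 and knockout replicate 3. The mismatch difference of Val-AAC-4 became -0.31 points at position 26 without wild-type replicate 1 (range over libraries left out -0.31 to 1.24), and -0.27 and -0.57 at position 7 without wild-type replicate 2 and knockout replicate 1 (range -0.57 to 0.63). The share of Val-TAC-1 crossing the anticodon became 0.12 points without wild-type replicate 2 (range -4.13 to 0.12). Over single references, sites and ratios, each set against each of its alternatives, 263 comparisons kept direction and side of the threshold, 5 became calls and 6 lost a call, beside the 26 sign changes above.

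Correlations between the deviations of same-numbered libraries were -0.11 to 0.03 for mismatches, 0.04 to 0.10 for read starts and 0.04 to 0.10 for abundance. For deletions they were -0.11 to 0.13 and for insertions -0.17 to -0.10. These values cannot settle whether the numbers pair the samples, which the labels do not say. With the replicate block, the valine calls were 0 mismatch, 0 start, 0 deletion and 0 insertion sites, 0 ratios and 4 references, among 35 references in all, and Val-AAC-4 was at 0.89 (edgeR adjusted p = 0.0049). The blocked differences were -0.96 points at position 34, 1.40 at 58, and 2.52, -2.75 and 0.24 for the AAC, CAC and TAC shares. These equal the unblocked differences by arithmetic, since each number holds a library of each genotype, so they do not show stability. Depth limits Val-AAC-1 and Val-CAC-2, whose coverage cannot show a rise, and Val-CAC-4 in 3 of the 6 libraries.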
